A study of Homo sapiens with 12 samples.

Results

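Axon guidance ligands and their receptors were described in TC71 cells, an established line of Ewing sarcoma, a tumour of bone and soft tissue driven by a fusion of EWSR1 with an ETS factor. The genes were taken by a rule on their names, set with earlier results of these data known: rows of the deposited count table whose Ensembl identifier belongs to a protein-coding gene with a symbol starting with SEMA, PLXN, EFNA, EFNB, ROBO or UNC5, or with SLIT and a digit, together with NRP1, NRP2, DCC, NEO1, NTN1, NTN3, NTN4 and NTN5. This rule found 49 of the 21569 genes of the table. GENCODE 29 holds 59 protein-coding genes that fit the rule, and the other 10 (EFNA4-EFNA3, NRP2, PLXNA2, PLXNA4, ROBO4, SEMA3E, SEMA5A, SLIT1, SLIT3 and UNC5D) were not analysed here. Of the 49, 2 carry the letters without belonging to the guidance families: UNC50, a Golgi protein, and UNC5CL, an UNC5C-like protein. Both are kept in the counts and promoter windows of guidance genes below.

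The study asked which genes depend on ID2 in these cells. It holds 4 groups of 3 libraries: a line labelled as an ID2 rescue of knockout clone 2, ID2 knockout clone 2, ID2 knockout clone 1, and wild-type TC71 cells. All were grown in DMEM with fetal bovine serum, and polyadenylated RNA was sequenced from stranded libraries. Each knockout is a single clone, the rescue line descends from 1 of them, and the sources used here do not give how ID2 was disrupted or returned. With 1 clone per knockout line, a difference from wild-type cells that comes from the loss of ID2 and one that comes from picking a clone cannot be told apart. Whether a group's 3 libraries are separate cultures is not said in the labels, so a p-value here measures a spread between libraries that may be technical only.

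Semaphorins are secreted or membrane-bound cues that are read by plexins, with neuropilins as co-receptors for most of the secreted class 3 members. Netrins are secreted cues read by DCC, neogenin (NEO1) and the UNC5 family: DCC is best known for attraction, and UNC5 receptors for repulsion and, when netrin is absent, for signalling cell death. Slits bind robo receptors, and ephrins are membrane-anchored ligands of the EPH receptor tyrosine kinases. ID2 is an inhibitor of basic helix-loop-helix transcription factors: it pairs with them and keeps them from DNA, where they bind the E-box.

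ID2 RNA, the check of the labels, stood at 42.0, 41.7 and 40.9 CPM in the libraries labelled rescue and 47.8, 50.8 and 54.1 CPM in clone 2. In clone 1 it was at 17.9, 17.4 and 18.9 CPM, against 77.6, 78.6 and 77.4 CPM in wild-type cells. The clones were lower than wild-type cells, with a log2 fold change of -0.62 (SE 0.044) in clone 2 and -2.11 (SE 0.051) in clone 1. The libraries labelled rescue had less ID2 RNA than clone 2 (log2 fold change -0.29, SE 0.047, edgeR with Benjamini-Hochberg adjustment, adjusted p = 3.52e-06), which goes against the label for RNA, so their direction below is that of the libraries labelled rescue and not of a known return of ID2. Total counts were 19420408 to 29748084 per library, and 17084 genes had enough reads to be tested. All 12 listed Ewing sarcoma markers were at or above 1 CPM (counts scaled to library size) in every group, while none of the 3 of 6 blood and 1 of 5 endothelial markers with a row reached it (sums of at most 0.977 and 0.250 CPM per library). Markers of other cell types moved with the groups: the 3 of 6 epithelial markers with a row (EPCAM, KRT8, KRT18) summed to 75.9 to 85.9 CPM in the libraries labelled rescue, 145.9 to 178 CPM in clone 2, 865 to 932 CPM in clone 1 and 114 to 121 CPM in wild-type cells, and 6 fibroblast markers to 40.2 to 47.3 CPM, 134 to 147 CPM, 288 to 301 CPM and 139 to 145 CPM in the same order. The fibroblast markers did not move together in clone 2. COL1A1 averaged 65.1 CPM there and 27.4 CPM in wild-type cells. PDGFRB averaged 66.3 and 96.4 CPM, DCN 7.68 and 11.4, LUM 0.0323 and 3.77, and FAP 2.35 and 2.78 in the same order. In clone 1, LUM was also below wild-type cells, at 2.46 CPM. COL1A1, PDGFRB, DCN and FAP were above wild-type cells in clone 1, at 110, 160, 15.4 and 8.56 CPM. COL1A2 averaged under 1 CPM in every group. The part of the epithelial and fibroblast markers in the results below was not tested. In bulk RNA, fewer cells of a type and less RNA per cell cannot be told apart.

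The promoter windows of 6 of the genes described library by library, all with large differences between lines, are shown, because ID2 acts on proteins that bind the E-box CANNTG. Each window covers 250 bases before to 50 bases after the annotated start, is taken from RefSeq (GRCh38.p14), reads 5′ to 3′ on the gene's strand, and has each CANNTG in capitals. The windows are those of UNC5A (chr5:176810309-176810608, plus strand), UNC5C (chr4:95548924-95549223, minus strand), NEO1 (chr15:73051652-73051951, plus strand), NTN4 (chr12:95791106-95791405, minus strand), SEMA7A (chr15:74433909-74434208, minus strand) and SEMA3G (chr3:52445054-52445353, minus strand).
UNC5A: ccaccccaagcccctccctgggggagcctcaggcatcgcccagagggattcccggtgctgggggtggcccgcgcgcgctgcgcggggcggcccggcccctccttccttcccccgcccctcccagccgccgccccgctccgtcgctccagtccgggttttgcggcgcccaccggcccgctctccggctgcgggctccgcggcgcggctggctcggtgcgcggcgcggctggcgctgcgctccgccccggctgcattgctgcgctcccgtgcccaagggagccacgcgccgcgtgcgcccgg
UNC5C: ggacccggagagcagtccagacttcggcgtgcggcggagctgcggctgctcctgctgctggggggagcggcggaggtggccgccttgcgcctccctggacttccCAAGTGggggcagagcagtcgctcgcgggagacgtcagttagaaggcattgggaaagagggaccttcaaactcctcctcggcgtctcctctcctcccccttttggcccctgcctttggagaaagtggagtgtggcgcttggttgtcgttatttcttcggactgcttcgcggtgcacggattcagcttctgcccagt
NEO1: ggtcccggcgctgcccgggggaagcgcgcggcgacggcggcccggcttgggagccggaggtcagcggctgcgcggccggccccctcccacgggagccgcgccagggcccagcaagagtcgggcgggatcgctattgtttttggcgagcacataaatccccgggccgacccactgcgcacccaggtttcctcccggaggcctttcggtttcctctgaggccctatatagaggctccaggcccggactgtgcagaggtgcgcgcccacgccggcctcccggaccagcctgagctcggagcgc
NTN4: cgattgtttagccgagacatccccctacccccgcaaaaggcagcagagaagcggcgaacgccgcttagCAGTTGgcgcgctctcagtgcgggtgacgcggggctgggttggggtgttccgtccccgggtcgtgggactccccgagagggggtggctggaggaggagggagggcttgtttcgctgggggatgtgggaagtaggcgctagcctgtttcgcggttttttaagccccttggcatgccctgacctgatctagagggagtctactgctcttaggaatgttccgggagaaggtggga
SEMA7A: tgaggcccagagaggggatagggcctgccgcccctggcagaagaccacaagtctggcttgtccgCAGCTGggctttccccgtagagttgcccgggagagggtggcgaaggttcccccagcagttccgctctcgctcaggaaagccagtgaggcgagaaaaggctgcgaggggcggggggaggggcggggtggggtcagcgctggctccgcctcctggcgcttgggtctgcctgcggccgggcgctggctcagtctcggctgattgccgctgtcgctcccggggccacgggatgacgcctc
SEMA3G: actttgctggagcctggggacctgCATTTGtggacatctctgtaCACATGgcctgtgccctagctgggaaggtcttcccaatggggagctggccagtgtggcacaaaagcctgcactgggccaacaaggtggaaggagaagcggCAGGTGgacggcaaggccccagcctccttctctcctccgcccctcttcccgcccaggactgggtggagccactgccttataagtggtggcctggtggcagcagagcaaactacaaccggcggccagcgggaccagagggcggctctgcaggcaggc
SEMA3G had 3 E-boxes in its window, UNC5C, NTN4 and SEMA7A had 1 each, and UNC5A and NEO1 had 0. CANNTG, which is the same on both strands, was in 62.1% of the 66 windows of the 41 guidance genes found in the table of windows, against 68.7% of all 35116 windows. CAGCTG, an E-box that also reads the same on both strands, was in 19.7% of the guidance windows and 17.9% of all. CAGGTG, searched also as CACCTG, was in 18.2% and 20.6%, and both are among the sequences counted as CANNTG. GGAAGGAA, searched on both strands as a pair of the GGAA repeats that the EWSR1-FLI1 fusion binds, was in 6.06% of the guidance windows and 3.67% of all windows. A match is a description of the letters and not evidence of a bound site. EFNB3, NRP1, NTN1, NTN3, SEMA3A, SEMA6A, SEMA6B and UNC5B had no window in the table.

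Expressed per kilobase of annotated exon, so that genes can be set side by side, the most abundant guidance RNA was that of EFNB1, an ephrin-B ligand, at 67.1 CPM per kb in the libraries labelled rescue, 53.0 in clone 2, 48.2 in clone 1 and 41.0 in wild-type cells. PLXNB2, a receptor of class 4 semaphorins, came second in all 4 groups at 21.8 to 30.1 CPM per kb. UNC5B, SLIT2, UNC50, ROBO2, PLXND1, ROBO1 and SEMA4C followed in wild-type cells at 17.7, 17.3, 15.7, 11.9, 10.8, 9.83 and 8.48 CPM per kb. UNC5B and SLIT2 differed there by less than the spread of their libraries. NEO1 held place 4 in the libraries labelled rescue, 5 in clone 2 and 18 in clone 1, against 10 in wild-type cells. Of the 49 genes, 43 averaged at least 1 CPM over the 12 libraries and 24 at least 10 CPM. EFNA2, EFNB2 and PLXNB3 had too few reads to be tested, with 2, 11 and 6 reads in the libraries labelled rescue, 6, 13 and 13 in clone 2, 11, 9 and 8 in clone 1 and 3, 15 and 6 in wild-type cells.

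**Figure D1:**
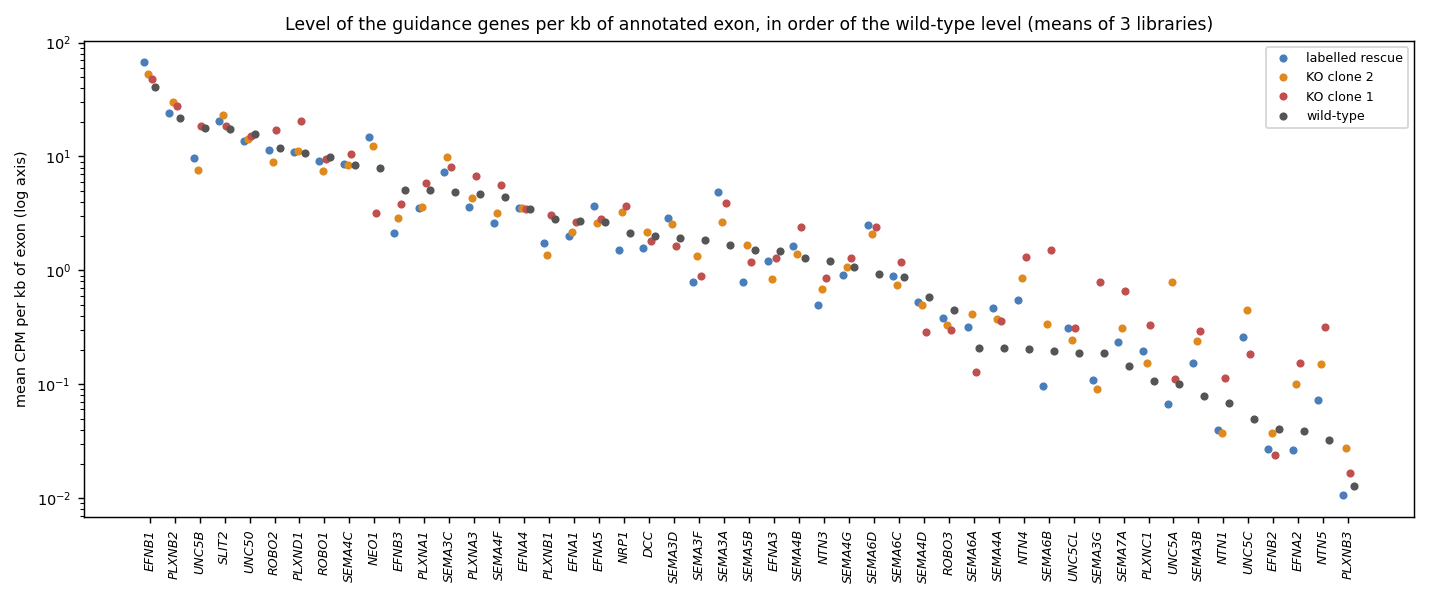
Mean level of each of the 49 guidance genes in CPM per kb of exon (vertical log axis), ordered from left to right by the wild-type level, with 1 point per group of 3 libraries: the libraries labelled rescue, knockout clone 2, knockout clone 1 and wild-type cells. EFNB1 and PLXNB2 are the highest points in every group, and NEO1, UNC5A, SEMA3G and SEMA6B show wide gaps between groups.

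A gene was called when its adjusted p was under 0.05 in edgeR's quasi-likelihood test over all tested genes. In clone 2 against wild-type cells, 19 of the 46 tested guidance genes were higher and 15 lower, beside 31.5% higher and 30.6% lower among all 17084 genes. With upper quartile scaling the same comparison gave 23 higher and 11 lower. That scaling moved the median of all genes up by 0.069 on the log2 scale. The shares of all genes under it are not given here, so these 2 counts have no share to be read beside. In clone 1 against wild-type cells 26 were higher and 9 lower, beside 30.8% and 30.7% of all genes. The libraries labelled rescue against clone 2 gave 12 higher and 15 lower, beside 19.3% and 19.9% of all genes, and against wild-type cells 18 higher and 16 lower, beside 28.5% and 29.9%. Clone 2 against clone 1 gave 13 higher and 25 lower, beside 30.3% and 31.9% of all genes. Calls in either direction took 62.1% of all genes in clone 2 against wild-type cells and 61.5% in clone 1 against wild-type cells, 39.2% in the libraries labelled rescue against clone 2, 58.4% in them against wild-type cells and 62.2% in clone 2 against clone 1, so a call was common among expressed genes, and the counts above are read beside these shares. At 2-fold or more, clone 2 had 9 guidance genes called above and 3 below wild-type cells, beside 10.4% and 2.87% of all genes, and clone 1 had 10 above and 3 below, beside 9.61% and 4.06%. The libraries labelled rescue had 0 called above and 4 called below clone 2 by 2-fold or more, beside 0.48% and 4.47%, and 5 above and 4 below wild-type cells, beside 6.78% and 3.97%. Clone 2 had 4 above and 7 below clone 1, beside 7.29% and 6.64%. The median log2 fold change of the 46 genes was 0.07 in clone 2 and 0.29 in clone 1 against wild-type cells, and -0.03 in the libraries labelled rescue against clone 2. For all tested genes these medians were 0.013, 0.0064 and -0.0002.

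**Figure D2:**
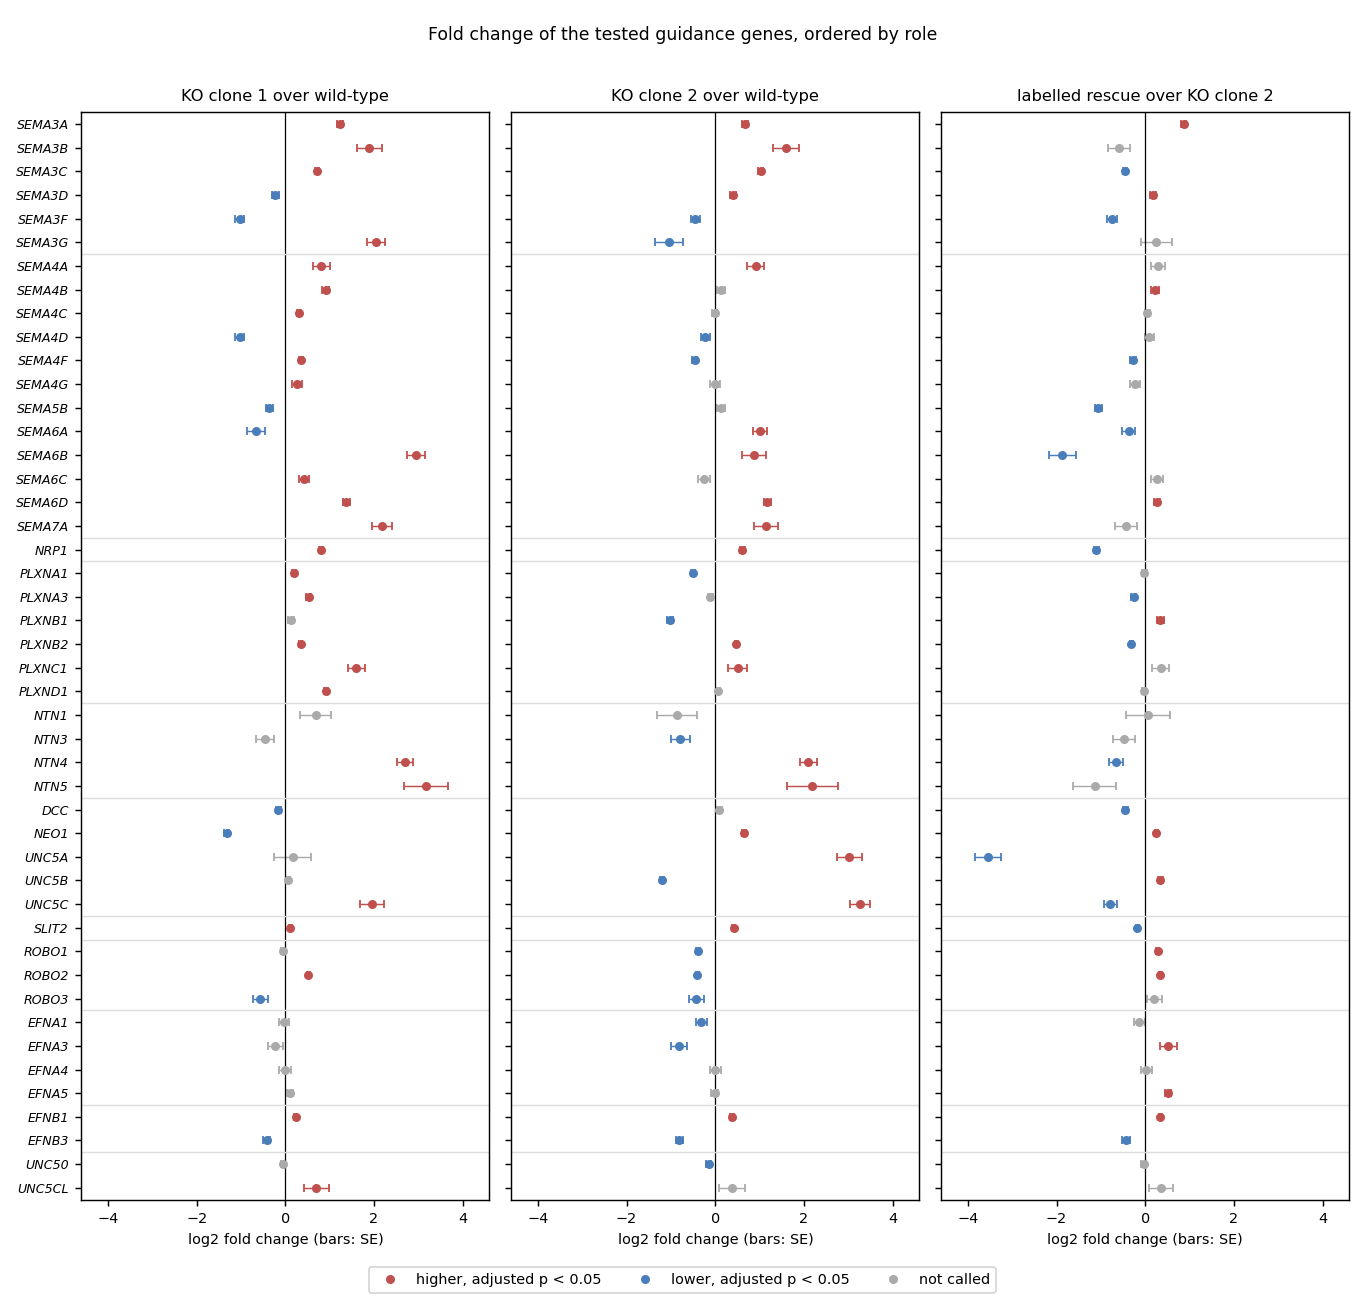
Log2 fold change (horizontal axis, bars are 1 SE) of the 46 tested guidance genes, ordered by role, for clone 1 over wild-type, clone 2 over wild-type and labelled rescue over clone 2, coloured red where called higher, blue where called lower and grey where not called. Genes lie on both sides of 0 in each panel, and 4 genes were called with a 2-fold or larger difference between the libraries labelled rescue and clone 2, all lower.

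Of the class 3 semaphorins, the secreted cues that signal through neuropilins and plexins, 6 were measured and all 6 were called in both comparisons with wild-type cells, 4 higher and 2 lower in each, beside 62.1% of all genes called in clone 2 and 61.5% in clone 1. SEMA3A, the classical collapse factor of growth cones, was higher than wild-type in each line. SEMA3A (ENSG00000075213, chr7:83955777-84492724 on hg38) stood at 47.1, 48.0 and 41.6 CPM in the libraries labelled rescue and 26.5, 26.5 and 21.9 CPM in clone 2. Clone 1 libraries held 35.7, 39.4 and 35.2 CPM, against 16.3, 15.2 and 15.7 CPM in wild-type cells. None of the 4 groups overlapped, and the libraries labelled rescue were the highest. Against wild-type cells, clone 2 stood at a log2 fold change of 0.67 (SE 0.073, adjusted p = 1.81e-10) and clone 1 at 1.23 (SE 0.069, adjusted p = 5.6e-19). Against clone 2, the libraries labelled rescue stood at 0.86 (SE 0.062, adjusted p = 7.83e-15).

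SEMA3C, a semaphorin of heart outflow and vessel development, was the most abundant of the class per kb in every group. SEMA3C (ENSG00000075223, chr7:80742538-80922359 on hg38) stood at 46.6, 43.8 and 46.7 CPM in the libraries labelled rescue and 62.3, 60.3 and 64.4 CPM in clone 2. The clone 1 libraries had 47.7, 51.2 and 52.8 CPM, against 31.4, 29.1 and 31.8 CPM in wild-type cells. The wild-type libraries were the lowest and clone 2 the highest, with a log2 fold change of 1.02 (SE 0.049, adjusted p = 6.94e-21) in clone 2 and 0.72 (SE 0.050, adjusted p = 6.92e-16) in clone 1 against wild-type cells. SEMA3B, described elsewhere as a tumour suppressor of lung, was scarce: SEMA3B (ENSG00000012171, chr3:50267558-50277546 on hg38) stood at 1.07, 0.969 and 0.650 CPM in the libraries labelled rescue and 1.15, 1.82 and 1.20 CPM in clone 2. Values in clone 1 were 1.65, 1.49 and 1.89 CPM, against 0.503, 0.474 and 0.379 CPM in wild-type cells. All libraries of the other lines lay above those of wild-type cells, and clones 1 and 2 overlapped. SEMA3B was higher than wild-type by 1.60 (SE 0.29, adjusted p = 9.61e-06) in clone 2 and 1.89 (SE 0.28, adjusted p = 1.81e-07) in clone 1 on the log2 scale, while the difference between the libraries labelled rescue and clone 2 did not pass (log2 fold change -0.60, SE 0.25, adjusted p = 0.0509). It passed without clone 2 replicate 1 (-0.73, adjusted p = 0.0406) or rescue replicate 1 (-0.74, adjusted p = 0.0431), with the filter of 1 CPM (-0.61, adjusted p = 0.0421) and with upper quartile scaling (-0.63, adjusted p = 0.0417).

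SEMA3F, a ligand of neuropilin 2, was lower than wild-type in all 3 lines. SEMA3F (ENSG00000001617, chr3:50155045-50189075 on hg38) stood at 4.04, 3.99 and 3.52 CPM in the libraries labelled rescue and 6.35, 6.68 and 6.39 CPM in clone 2. Clone 1 itself had 4.15, 4.76 and 3.99 CPM, against 9.73, 8.48 and 8.45 CPM in wild-type cells. The libraries labelled rescue and clone 1 lay lowest, clone 2 between them and wild-type cells. Against wild-type cells the log2 fold change was -0.46 (SE 0.10, adjusted p = 0.000132) in clone 2 and -1.03 (SE 0.11, adjusted p = 5.13e-11) in clone 1. Libraries labelled rescue stood at -0.75 (SE 0.12, adjusted p = 1.35e-06) against clone 2.

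SEMA3G, a class 3 member known from endothelial cells, moved in opposite directions in the clones. SEMA3G (ENSG00000010319, chr3:52433053-52445085 on hg38) stood at 0.624, 0.620 and 0.382 CPM in the libraries labelled rescue and 0.489, 0.455 and 0.417 CPM in clone 2. In clone 1 it was at 4.95, 3.70 and 3.29 CPM, against 0.965, 0.853 and 1.000 CPM in wild-type cells. All 3 clone 1 libraries lay above and all libraries of clone 2 and labelled rescue below the wild-type libraries. In clone 2 the log2 fold change against wild-type cells was -1.04 (SE 0.31, adjusted p = 0.00404). In clone 1 it was 2.05 (SE 0.20, adjusted p = 1.05e-11), and clone 2 differed from clone 1 by -3.09 (SE 0.24, adjusted p = 9.31e-15). SEMA3D averaged 23.1 CPM in the libraries labelled rescue, 20.6 in clone 2, 13.3 in clone 1 and 15.6 in wild-type cells, and was called higher in clone 2 and lower in clone 1 when set against wild-type cells, both by less than 2-fold.

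Of the membrane semaphorins, 12 were measured. In clone 1 all 12 were called against wild-type cells, 9 higher and 3 lower, while in clone 2 there were 5 higher, 2 lower and 5 that did not pass. Over all genes 61.5% were called in clone 1 and 62.1% in clone 2, so the clone 2 count is near that of all genes. SEMA6D, a ligand of plexin A1 in the developing chick heart, was higher than wild-type in each line. SEMA6D (ENSG00000137872, chr15:47184101-47774223 on hg38) stood at 22.9, 19.8 and 21.6 CPM in the libraries labelled rescue and 18.4, 17.2 and 17.9 CPM in clone 2. Clone 1 libraries held 19.3, 21.2 and 20.9 CPM, against 7.84, 8.67 and 7.41 CPM in wild-type cells. The wild-type libraries lay far below all others, and the log2 fold change was 1.17 (SE 0.080, adjusted p = 3.3e-16) in clone 2, 1.37 (SE 0.078, adjusted p = 8.2e-19) in clone 1 and 1.44 (SE 0.076, adjusted p = 1.53e-19) in the libraries labelled rescue, each against wild-type cells.

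SEMA7A, which is tethered to the membrane by a lipid anchor and binds plexin C1 and integrins, was low but ordered. SEMA7A (ENSG00000138623, chr15:74409289-74433958 on hg38) stood at 0.844, 0.969 and 0.841 CPM in the libraries labelled rescue and 1.19, 1.01 and 1.39 CPM in clone 2. The clone 1 libraries had 2.75, 2.35 and 2.35 CPM, against 0.587, 0.616 and 0.448 CPM in wild-type cells. No 2 groups overlapped, and clone 1 was the highest. The log2 fold change was 1.14 (SE 0.27, adjusted p = 0.000356) in clone 2 and 2.17 (SE 0.23, adjusted p = 1.07e-10) in clone 1 against wild-type cells. The difference between the libraries labelled rescue and wild-type cells was 0.70 (SE 0.28, adjusted p = 0.031), and it did not pass without rescue replicate 2 (0.63, adjusted p = 0.0897) or without wild-type replicate 3 (0.55, adjusted p = 0.153). Nor did it pass with DESeq2's own test (0.70, adjusted p = 0.0709).

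SEMA6B, a transmembrane semaphorin that binds A-type plexins, was highest in clone 1. SEMA6B (ENSG00000167680, chr19:4542593-4559808 on hg38) stood at 0.441, 0.426 and 0.421 CPM in the libraries labelled rescue and 2.41, 0.962 and 1.11 CPM in clone 2. Values in clone 1 were 6.15, 7.29 and 6.54 CPM, against 1.01, 0.711 and 0.862 CPM in wild-type cells. Clone 1 stood apart from all other libraries, and replicate 1 of clone 2 lay above the other 2 of its group. In clone 1 the log2 fold change against wild-type cells was 2.95 (SE 0.20, adjusted p = 3.47e-16). Lower than clone 2, the libraries labelled rescue stood at -1.87 (SE 0.31, adjusted p = 4.35e-06). In clone 2 against wild-type cells the log2 fold change was 0.87 (SE 0.27, adjusted p = 0.00495), but the groups overlapped, and without clone 2 replicate 1 it was 0.25 (adjusted p = 0.472).

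SEMA6A, a plexin A ligand of migrating neurons, was higher in clone 2 and lower in clone 1 when set against wild-type cells. SEMA6A (ENSG00000092421, chr5:116443616-116574934 on hg38) stood at 3.60, 2.60 and 4.28 CPM in the libraries labelled rescue and 4.12, 4.45 and 5.14 CPM in clone 2. Clone 1 itself had 1.20, 1.60 and 1.44 CPM, against 2.27, 2.46 and 2.10 CPM in wild-type cells. Clone 1 lay below and clone 2 above the wild-type libraries with no overlap, at log2 fold changes of 1.00 (SE 0.16, adjusted p = 1.15e-06) in clone 2 and -0.66 (SE 0.20, adjusted p = 0.0052) in clone 1. The libraries labelled rescue overlapped clone 2: the difference of -0.38 (SE 0.15, adjusted p = 0.0397) did not pass without clone 2 replicate 2 or 3 or without rescue replicate 1 or 2, the adjusted p then being 0.0674, 0.204, 0.072 and 0.331 at -0.38, -0.27, -0.39 and -0.20. Nor did it pass with DESeq2's own test (-0.38, adjusted p = 0.103) or with no filter (-0.35, adjusted p = 0.0553).

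SEMA4D, a plexin B1 ligand first known from lymphocytes, was lower in clone 1. SEMA4D (ENSG00000187764, chr9:89360787-89498130 on hg38) stood at 8.15, 7.48 and 6.77 CPM in the libraries labelled rescue and 6.98, 6.73 and 7.36 CPM in clone 2. In clone 1 it was at 4.65, 3.73 and 3.79 CPM, against 8.26, 8.25 and 8.17 CPM in wild-type cells. Clone 1 lay below all other libraries (log2 fold change -1.03, SE 0.11, adjusted p = 9.2e-11 against wild-type cells). The difference of clone 2 from wild-type cells was -0.23 (SE 0.099, adjusted p = 0.0454) and did not pass without clone 2 replicate 1 (adjusted p = 0.0826) or 2 (0.0928), or without wild-type replicate 1 (0.0644), 2 (0.0652) or 3 (0.0603), at -0.25 to -0.21. Nor did it pass with DESeq2's own test (-0.23, adjusted p = 0.104), the filter of 1 CPM (-0.21, adjusted p = 0.0544) or upper quartile scaling (-0.16, adjusted p = 0.168).

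SEMA5B, a semaphorin with thrombospondin repeats, was lower in the libraries labelled rescue than in every other group. SEMA5B (ENSG00000082684, chr3:122909082-123028605 on hg38) stood at 7.16, 6.12 and 7.03 CPM in the libraries labelled rescue and 13.4, 13.4 and 15.6 CPM in clone 2. Clone 1 libraries held 11.1, 9.56 and 9.71 CPM, against 13.6, 12.5 and 12.7 CPM in wild-type cells. The 3 libraries labelled rescue lay below the other 9, at a log2 fold change of -1.06 (SE 0.089, adjusted p = 7.11e-13) against clone 2. Clone 2 and wild-type libraries overlapped, and clone 1 lay below wild-type cells at -0.36 (SE 0.084, adjusted p = 0.000269).

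The other membrane semaphorins, SEMA4A, SEMA4B, SEMA4C, SEMA4F, SEMA4G and SEMA6C, were all called higher in clone 1 than in wild-type cells, at log2 fold changes of 0.27 to 0.91. SEMA4A averaged 3.16 CPM in the libraries labelled rescue, 2.56 in clone 2, 2.44 in clone 1 and 1.41 in wild-type cells and was called higher in clone 2 as well (log2 fold change 0.91, SE 0.19, adjusted p = 9.04e-05). SEMA4F, at 19.8 CPM in clone 2, 34.7 in clone 1 and 27.2 in wild-type cells, was lower in clone 2 (log2 fold change -0.46, SE 0.059, adjusted p = 7.36e-09). SEMA4G, whose exons lie over 22.3% of their length on those of MRPL43 on the opposite strand, is uncertain because the strand setting of the counting is not given in the sources used here, and its call in clone 1 did not pass without clone 1 replicate 2 or 3 or wild-type replicate 2 or 3, at 0.20 to 0.27 and adjusted p of 0.174, 0.0672, 0.119 and 0.117. The SEMA4G call was also lost with DESeq2's own test (0.26, adjusted p = 0.0915) and with no filter (0.25, adjusted p = 0.0553).

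NRP1, the co-receptor that class 3 semaphorins share with vascular endothelial growth factor, was higher in both clones than in wild-type cells and lower in the libraries labelled rescue. NRP1 (ENSG00000099250, chr10:33177492-33336262 on hg38) stood at 17.3, 16.7 and 18.3 CPM in the libraries labelled rescue and 35.6, 36.6 and 40.0 CPM in clone 2. The clone 1 libraries had 44.0, 41.8 and 42.5 CPM, against 24.4, 23.6 and 25.3 CPM in wild-type cells. None of the groups overlapped. Both clones were above wild-type cells, clone 2 at a log2 fold change of 0.61 (SE 0.055, adjusted p = 1.39e-12) and clone 1 at 0.80 (SE 0.054, adjusted p = 2.08e-16). Below clone 2 lay the libraries labelled rescue, at -1.10 (SE 0.058, adjusted p = 4.43e-19). Against wild-type cells the libraries labelled rescue were also lower (log2 fold change -0.49, SE 0.061, adjusted p = 4.61e-09).

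**Figure D3:**
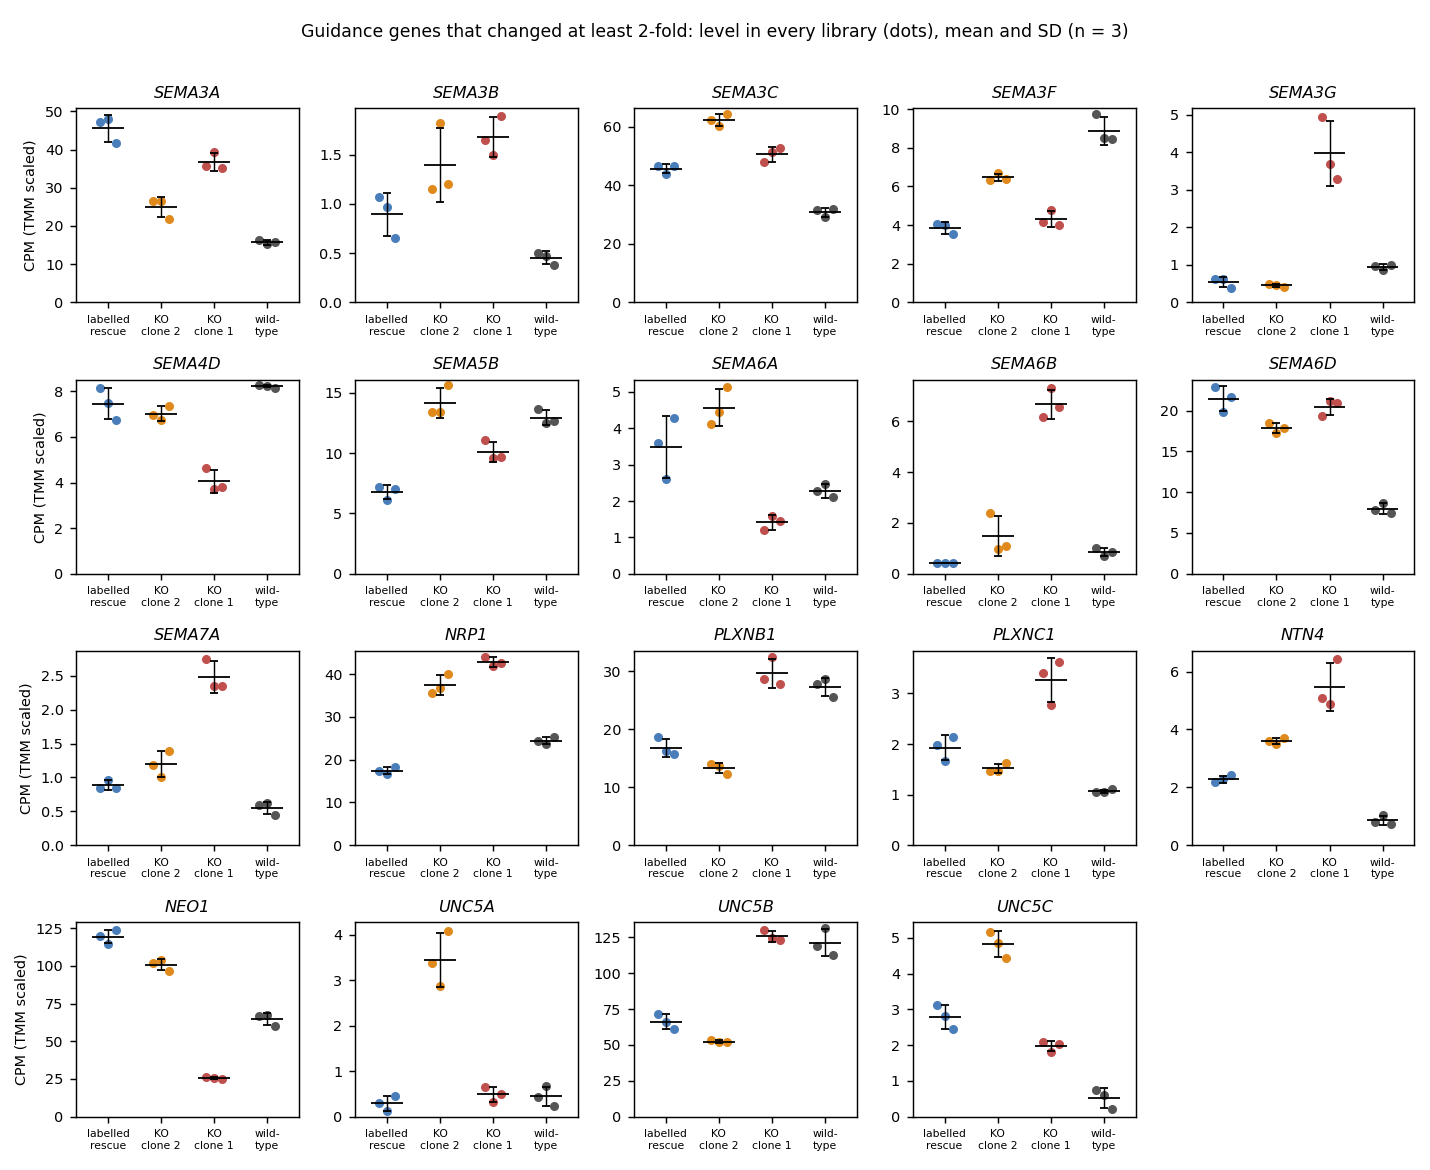
CPM of the 19 genes called with a 2-fold change or more, 1 point per library on a linear axis from 0 that differs between panels, with a bar at each group's mean and whiskers of 1 SD (n = 3), for the libraries labelled rescue, knockout clone 2, knockout clone 1 and wild-type cells. NEO1 and SEMA6A lie above the wild-type level in clone 2 and below it in clone 1, UNC5A is highest in clone 2, and NRP1 and SEMA5B are lowest in the libraries labelled rescue.

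Of the plexins, the receptors of semaphorins, 6 were tested: 5 were higher in clone 1 than in wild-type cells and none was called lower, while clone 2 had 2 higher and 2 lower, beside 30.8% of all genes higher in clone 1 and 31.5% higher and 30.6% lower in clone 2. PLXNB2 supplied 54.8% of the summed plexin RNA per kb in the libraries labelled rescue, 59.3% in clone 2, 43.4% in clone 1 and 48.1% in wild-type cells. PLXND1, the receptor of SEMA3E in vessels, averaged 106 CPM, 109 CPM, 198 CPM and 105 CPM in the same groups and was higher in clone 1 (log2 fold change 0.91, SE 0.040, adjusted p = 1.25e-22). The summed plexin level was 44.1 ± 1.03 CPM per kb in the libraries labelled rescue, 50.8 ± 2.07 in clone 2, 64.0 ± 1.49 in clone 1 and 45.3 ± 1.78 in wild-type cells (SD, n = 3 each). PLXNA1 was higher in clone 1 (log2 fold change 0.19, SE 0.045, adjusted p = 0.000347) and lower in clone 2 (log2 fold change -0.50, SE 0.048, adjusted p = 6.69e-12) than in wild-type cells, and PLXNA3, at 50.6 CPM in clone 2, 78.7 in clone 1 and 55.1 in wild-type cells, was higher in clone 1 (log2 fold change 0.52, SE 0.052, adjusted p = 1.9e-11).

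PLXNB1, the receptor of SEMA4D, was lower in clone 2. PLXNB1 (ENSG00000164050, chr3:48403854-48430051 on hg38) stood at 18.6, 16.3 and 15.7 CPM in the libraries labelled rescue and 14.0, 13.7 and 12.4 CPM in clone 2. Values in clone 1 were 28.7, 32.5 and 27.8 CPM, against 27.8, 28.7 and 25.5 CPM in wild-type cells. Clone 1 and wild-type libraries overlapped, and clone 2 lay below all others. The log2 fold change was -1.02 (SE 0.074, adjusted p = 1.71e-15) in clone 2 against wild-type cells and 0.33 (SE 0.078, adjusted p = 0.000673) in the libraries labelled rescue against clone 2, which left them below wild-type cells (log2 fold change -0.69, SE 0.069, adjusted p = 2.21e-11). The genes of its chromosome, 3, had a median of -0.20 in clone 2 against wild-type cells and 0.12 in the libraries labelled rescue against clone 2.

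PLXNC1, the receptor of SEMA7A, was highest in clone 1, as its ligand was. PLXNC1 (ENSG00000136040, chr12:94148723-94307675 on hg38) stood at 1.98, 1.67 and 2.14 CPM in the libraries labelled rescue and 1.47, 1.47 and 1.62 CPM in clone 2. Clone 1 itself had 3.40, 2.77 and 3.62 CPM, against 1.05, 1.04 and 1.10 CPM in wild-type cells. The log2 fold change in clone 1 against wild-type cells was 1.60 (SE 0.19, adjusted p = 9.85e-10). In clone 2 it was 0.50 (SE 0.22, adjusted p = 0.0446), and the call was lost whichever of the 6 libraries of that comparison was left out, at 0.44 to 0.52 and adjusted p of 0.0693 to 0.121. It was also lost with DESeq2's own test (0.51, adjusted p = 0.0914), limma-voom's test (0.50, adjusted p = 0.0612) and no filter (0.47, adjusted p = 0.0721).

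Netrin RNAs were scarce in all groups, with no library above 6.42 CPM for any of them. NTN4, a netrin of basement membranes that binds laminin, was higher than wild-type in each line. NTN4 (ENSG00000074527, chr12:95657807-95791152 on hg38) stood at 2.17, 2.29 and 2.41 CPM in the libraries labelled rescue and 3.60, 3.49 and 3.70 CPM in clone 2. In clone 1 it was at 5.10, 4.87 and 6.42 CPM, against 0.797, 1.04 and 0.724 CPM in wild-type cells. No 2 groups overlapped, clone 1 being the highest and wild-type cells the lowest. Log2 fold changes against wild-type cells were 2.09 (SE 0.19, adjusted p = 2.82e-12) in clone 2, 2.69 (SE 0.18, adjusted p = 1.33e-16) in clone 1 and 1.44 (SE 0.21, adjusted p = 1.45e-07) in the libraries labelled rescue. Compared with clone 2, NTN4 was lower in the libraries labelled rescue (log2 fold change -0.65, SE 0.16, adjusted p = 0.000728).

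NTN3, a netrin found in sensory ganglia of the mouse, supplied 42.6% of the summed netrin RNA per kb in the libraries labelled rescue, 39.5% in clone 2 and 32.4% in clone 1, against 79.4% in wild-type cells. NTN4 supplied 47.9%, 49.9% and 50.8% in those lines, against 13.5% in wild-type cells. NTN3 averaged 0.982 CPM in the libraries labelled rescue, 1.36 in clone 2, 1.69 in clone 1 and 2.41 in wild-type cells, and was called lower in clone 2 (log2 fold change -0.79, SE 0.21, adjusted p = 0.00154) but not in clone 1 (log2 fold change -0.45, SE 0.20, adjusted p = 0.0509). The clone 1 difference did pass without clone 1 replicate 2 (-0.58, adjusted p = 0.033) or 3 (-0.55, adjusted p = 0.0423) or wild-type replicate 3 (-0.66, adjusted p = 0.00719), and with the replicate block, DESeq2's size factors, the filter of 1 CPM or no filter (-0.47 to -0.45, adjusted p = 0.0423 to 0.049). NTN5 had 18 reads over the 3 libraries labelled rescue, 36 in clone 2, 74 in clone 1 and 8 in wild-type cells. It was called higher than wild-type in clone 2 (log2 fold change 2.19, SE 0.58, adjusted p = 0.00115) and in clone 1 (log2 fold change 3.17, SE 0.49, adjusted p = 4.74e-07). NTN5 passed the filter for testing only through clone 1, so the direction of its clone 1 call was fixed in advance. Without clone 2 replicate 1, the clone 2 difference was 1.25 (adjusted p = 0.123) and did not pass. NTN1, the best studied netrin, averaged 0.252, 0.240, 0.731 and 0.437 CPM in the libraries labelled rescue, clone 2, clone 1 and wild-type cells and was not called in either clone against wild-type cells. Leaving out clone 1 replicate 3 brought the clone 1 difference past the threshold (0.96, adjusted p = 0.0227), and leaving out wild-type replicate 2 brought that of clone 2 past it (-1.07, adjusted p = 0.0489).

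The make-up of the netrin receptors differed between the lines. NEO1, which also binds repulsive guidance molecules, was higher in clone 2 and lower in clone 1 when set against wild-type cells. NEO1 (ENSG00000067141, chr15:73051710-73305206 on hg38) stood at 120.0, 115 and 124 CPM in the libraries labelled rescue and 102, 104 and 96.7 CPM in clone 2. Clone 1 libraries held 26.3, 25.7 and 25.2 CPM, against 66.5, 67.2 and 60.0 CPM in wild-type cells. No 2 groups overlapped, with clone 1 the lowest and the libraries labelled rescue the highest. Against wild-type cells the log2 fold change was 0.65 (SE 0.043, adjusted p = 1.51e-16) in clone 2 and -1.32 (SE 0.051, adjusted p = 1.68e-24) in clone 1. Between clones 2 and 1 it was 1.97 (SE 0.049, adjusted p = 5.29e-31), and the libraries labelled rescue stood above clone 2 by 0.25 (SE 0.040, adjusted p = 3.55e-06).

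UNC5B, the UNC5 receptor of vessels and the most abundant one here, was lower in clone 2 and in the libraries labelled rescue. UNC5B (ENSG00000107731, chr10:71212570-71302864 on hg38) stood at 71.4, 66.0 and 60.8 CPM in the libraries labelled rescue and 53.2, 51.8 and 51.7 CPM in clone 2. The clone 1 libraries had 130.1, 124 and 123 CPM, against 119, 131 and 113 CPM in wild-type cells. Clone 1 and wild-type libraries overlapped (log2 fold change 0.06, SE 0.045, adjusted p = 0.283), and the other groups lay below both. The log2 fold change was -1.21 (SE 0.049, adjusted p = 2.55e-23) in clone 2 against wild-type cells and 0.34 (SE 0.051, adjusted p = 9.71e-07) in the libraries labelled rescue against clone 2.

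UNC5A, a repulsive netrin receptor of neurons, stood out in clone 2. UNC5A (ENSG00000113763, chr5:176810477-176880898 on hg38) stood at 0.294, 0.116 and 0.459 CPM in the libraries labelled rescue and 3.39, 2.88 and 4.07 CPM in clone 2. Values in clone 1 were 0.650, 0.320 and 0.494 CPM, against 0.419, 0.663 and 0.241 CPM in wild-type cells. All 3 clone 2 libraries lay above all 9 others. In clone 2 the log2 fold change against wild-type cells was 3.02 (SE 0.27, adjusted p = 1.12e-12). In the libraries labelled rescue it was -3.55 (SE 0.29, adjusted p = 2.74e-13) against clone 2. Libraries labelled rescue and wild-type libraries overlapped, and their difference did not pass (log2 fold change -0.53, SE 0.45, adjusted p = 0.323, 95% interval -1.40 to 0.35), nor did that of clone 1 and wild-type cells (log2 fold change 0.16, SE 0.41, adjusted p = 0.756, 95% interval -0.64 to 0.96). A 2-fold difference lies within the first interval and outside the second.

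UNC5C, the third UNC5 receptor, was higher than wild-type in each line. UNC5C (ENSG00000182168, chr4:95162504-95549206 on hg38) stood at 3.12, 2.83 and 2.45 CPM in the libraries labelled rescue and 5.17, 4.86 and 4.44 CPM in clone 2. Clone 1 itself had 2.10, 1.81 and 2.02 CPM, against 0.755, 0.616 and 0.207 CPM in wild-type cells. None of the groups overlapped, and clone 2 was the highest. Set against wild-type cells, clone 2 stood at a log2 fold change of 3.26 (SE 0.22, adjusted p = 4.16e-16), clone 1 at 1.96 (SE 0.27, adjusted p = 3.63e-08) and the libraries labelled rescue at 2.47 (SE 0.24, adjusted p = 1.81e-11). Compared with clone 2, UNC5C was lower in the libraries labelled rescue (log2 fold change -0.79, SE 0.15, adjusted p = 6.23e-05).

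DCC averaged 20.6 CPM in the libraries labelled rescue, 28.3 in clone 2, 23.8 in clone 1 and 26.5 in wild-type cells. It was called lower in clone 1 than in wild-type cells (log2 fold change -0.16, SE 0.059, adjusted p = 0.0166), a call lost without clone 1 replicate 2 (-0.12, adjusted p = 0.132). DCC was not called in clone 2 against wild-type cells, though with upper quartile scaling it was called higher there (0.16, adjusted p = 0.0139). The genes of its chromosome, 18, had a median log2 fold change of -0.36 in both comparisons, so DCC stood above its chromosome's median in each. Against clone 2 the libraries labelled rescue had less DCC RNA (log2 fold change -0.46, SE 0.059, adjusted p = 3.74e-08), with a median of 0.024 on that chromosome. Per kb, UNC5B supplied 36.7% of the netrin receptor RNA in the libraries labelled rescue, 32.6% in clone 2, 77.7% in clone 1 and 63.6% in wild-type cells, and NEO1 supplied 56.1%, 52.9%, 13.4% and 28.6%. The summed level of the 5 receptors was 26.3 ± 0.838, 23.4 ± 0.490, 23.7 ± 0.724 and 27.8 ± 1.88 CPM per kb in the same groups (SD, n = 3 each).

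**Figure D4:**
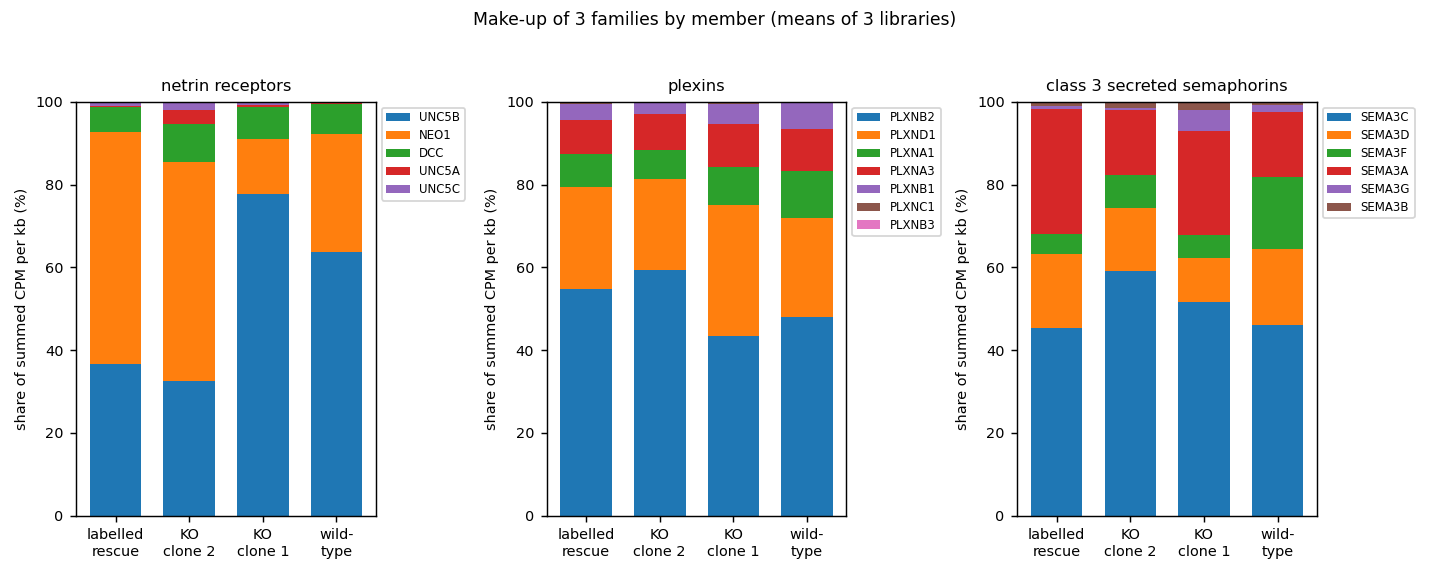
Share of the summed CPM per kb of the netrin receptors, the plexins and the class 3 semaphorins taken by each gene, as stacked bars from 0 to 100%, for the libraries labelled rescue, knockout clone 2, knockout clone 1 and wild-type cells (means of 3 libraries). NEO1 takes the largest share of the netrin receptor bar in the libraries labelled rescue and clone 2, and UNC5B in clone 1 and wild-type cells.

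SLIT2, the only slit analysed here, is the secreted ligand of the robo receptors and was among the most abundant guidance RNAs. It averaged 198 ± 5.83 CPM in the libraries labelled rescue, 225 ± 8.85 in clone 2, 181 ± 1.84 in clone 1 and 168 ± 3.83 in wild-type cells (SD, n = 3 each). It was higher in clone 2 (log2 fold change 0.41, SE 0.034, adjusted p = 9.24e-14) and in clone 1 (log2 fold change 0.11, SE 0.034, adjusted p = 0.00778) than in wild-type cells, and lower in the libraries labelled rescue than in clone 2 (log2 fold change -0.18, SE 0.034, adjusted p = 3.89e-05).

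ROBO2, one of the main slit receptors, stood at 194, 181 and 191 CPM in the libraries labelled rescue and 150.0, 154 and 143 CPM in clone 2. In clone 1 it was at 277, 287 and 286 CPM, against 193, 204 and 197 CPM in wild-type cells. Clone 1 lay above and clone 2 below the wild-type libraries, at log2 fold changes of -0.41 (SE 0.035, adjusted p = 3.14e-13) in clone 2 and 0.52 (SE 0.034, adjusted p = 1.04e-16) in clone 1. The libraries labelled rescue lay above clone 2 and overlapped the wild-type libraries, at 0.34 (SE 0.035, adjusted p = 2.21e-10) against clone 2. ROBO1, at 98.3 CPM in the libraries labelled rescue, 81.2 in clone 2, 103 in clone 1 and 107 in wild-type cells, was lower in clone 2 than in wild-type cells (log2 fold change -0.40, SE 0.041, adjusted p = 3.12e-11) and higher in the libraries labelled rescue than in clone 2 (log2 fold change 0.28, SE 0.041, adjusted p = 4.86e-07). ROBO1 and ROBO2 lie on chromosome 3, as do PLXNA1, SEMA3F and SEMA3G, which were also called lower in clone 2 than in wild-type cells. SEMA3B, called higher in that comparison, and PLXND1 and SEMA5B, not called in it, lie there too. The genes of chromosome 3 had a median log2 fold change of -0.20 in clone 2 against wild-type cells and 0.12 in the libraries labelled rescue against clone 2. ROBO3, which keeps commissural axons from answering slit too early, averaged 2.12 to 3.15 CPM and was called lower in clone 2 (log2 fold change -0.43, SE 0.16, adjusted p = 0.0218) and in clone 1 (log2 fold change -0.57, SE 0.17, adjusted p = 0.003). Its chromosome, 11, had a median of -0.60 in clone 2 against wild-type cells, and its clone 2 call was lost without clone 2 replicate 1 (-0.43, adjusted p = 0.0533) or 2 (-0.35, adjusted p = 0.0882) or wild-type replicate 2 (-0.36, adjusted p = 0.083). The call was also lost with DESeq2's own test (-0.43, adjusted p = 0.056) and with upper quartile scaling (-0.36, adjusted p = 0.054).

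EFNB1, a transmembrane ligand of EPHB receptors, was higher than wild-type in each line. EFNB1 stood at 228, 225 and 213 CPM in the libraries labelled rescue and 178, 179 and 170.0 CPM in clone 2. Clone 1 libraries held 168, 157 and 154 CPM, against 135, 141 and 131 CPM in wild-type cells. Wild-type cells were the lowest group and the libraries labelled rescue the highest, with no overlap between groups. Log2 fold changes against wild-type cells were 0.37 (SE 0.037, adjusted p = 1.96e-11) in clone 2, 0.23 (SE 0.037, adjusted p = 7.63e-07) in clone 1 and 0.71 (SE 0.037, adjusted p = 5.17e-20) in the libraries labelled rescue. EFNB3, another ligand of this class, showed the opposite order at 6.39, 7.63 and 6.69 CPM in the libraries labelled rescue and 10.4, 9.11 and 8.29 CPM in clone 2. The clone 1 libraries had 13.3, 11.9 and 11.9 CPM, against 16.4, 15.6 and 17.2 CPM in wild-type cells. It was lower in each line, at log2 fold changes of -0.81 (SE 0.084, adjusted p = 4.41e-11) in clone 2, -0.42 (SE 0.079, adjusted p = 1.56e-05) in clone 1 and -1.25 (SE 0.087, adjusted p = 5.36e-16) in the libraries labelled rescue, each against wild-type cells.

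Of the ephrin-A ligands, which are held to the membrane by a lipid anchor, 4 were tested. None was called in clone 1 against wild-type cells, beside 61.5% of all genes. EFNA1 and EFNA3 were called lower in clone 2 than in wild-type cells, beside 30.6% of all genes called lower there. EFNA1 averaged 5.52 CPM in clone 2 and 6.94 CPM in wild-type cells (log2 fold change -0.32, SE 0.12, adjusted p = 0.0187), a call lost without clone 2 replicate 2 (-0.28, adjusted p = 0.0582) or wild-type replicate 1 (-0.28, adjusted p = 0.0642). Upper quartile scaling lost the EFNA1 call too (-0.25, adjusted p = 0.0651). EFNA3 averaged 1.60 CPM in clone 2 and 2.84 CPM in wild-type cells (log2 fold change -0.82, SE 0.18, adjusted p = 0.00018). EFNA5, a repellent of retinal axons, averaged 21.1 CPM in the libraries labelled rescue, 14.9 in clone 2, 16.2 in clone 1 and 15.2 in wild-type cells, and was higher in the libraries labelled rescue than in clone 2 (log2 fold change 0.50, SE 0.070, adjusted p = 1.68e-07). EFNA3 and EFNA4 share 44.7% and 15.0% of their exon length with a readthrough gene on the same strand, so their counts are uncertain. EFNA4 was not called in any of the 5 comparisons.

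UNC50 averaged 30.6 to 35.0 CPM per group and was called lower in clone 2 than in wild-type cells (log2 fold change -0.15, SE 0.052, adjusted p = 0.0099). With upper quartile scaling this call was lost (-0.086, adjusted p = 0.158). UNC5CL averaged 0.590 to 0.987 CPM and was called higher in clone 1 (log2 fold change 0.70, SE 0.28, adjusted p = 0.0313), with a median of -0.21 on its chromosome, 6. The UNC5CL call was lost without clone 1 replicate 1 (0.52, adjusted p = 0.161) or without wild-type replicate 1, 2 or 3 (0.63 to 0.73, adjusted p = 0.0525 to 0.0831). DESeq2's own test did not call UNC5CL there either (0.71, adjusted p = 0.0806). Its exons lie over 23.8% of their length on those of OARD1.

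Lists of genes that work with these ligands and receptors were followed in the same tests. Of the EPH receptors, which bind ephrins, 10 of 14 were tested. In clone 2 against wild-type cells 4 were higher and 4 lower, and in clone 1 also 4 and 4, beside 31.5% higher and 30.6% lower among all genes in clone 2 and 30.8% and 30.7% in clone 1. EPHA5 and EPHB1 were among the 4 lower in each clone and passed the filter for testing only through their wild-type libraries. EPHB1 had 35 reads in wild-type cells, 3 in clone 1, 6 in clone 2 and 1 in the libraries labelled rescue. The direction of these calls was fixed in advance, so the counts of lower receptors are descriptions. In the libraries labelled rescue against clone 2, 0 were higher and 6 lower, beside 19.3% and 19.9% of all genes, with a median log2 fold change of -0.43 against -0.0002 over all genes. Few reads lie behind part of this. EPHA1 and EPHB2, both called lower, had 17 and 8 reads in the libraries labelled rescue and 41 and 35 in clone 2. EPHB1 and EPHA5, not called, had 1 and 6 reads against 6 and 1. EPHA2, a receptor of epithelial and tumour cells, averaged 19.7 ± 1.51 CPM in the libraries labelled rescue, 39.9 ± 2.73 in clone 2, 28.8 ± 2.50 in clone 1 and 27.0 ± 1.33 in wild-type cells (SD, n = 3 each), and was lower in the libraries labelled rescue than in clone 2 (log2 fold change -1.02, SE 0.063, adjusted p = 8.78e-17). EPHA3 averaged 41.9 CPM in clone 2, 78.3 in clone 1 and 68.4 in wild-type cells and was lower in clone 2 (log2 fold change -0.71, SE 0.045, adjusted p = 4.35e-17) and higher in clone 1 (log2 fold change 0.19, SE 0.042, adjusted p = 0.000106). EPHB3 averaged 17.2 CPM in the libraries labelled rescue, 25.6 in clone 2, 33.8 in clone 1 and 37.6 in wild-type cells and was lower in the libraries labelled rescue than in clone 2 (log2 fold change -0.58, SE 0.063, adjusted p = 5.08e-10). EPHB4 averaged 95.8, 104, 113 and 96.4 CPM and EPHA7 12.4, 12.2, 9.89 and 11.7 CPM in the libraries labelled rescue, clone 2, clone 1 and wild-type cells. EPHA4, a receptor of both ephrin classes, was higher than wild-type in clone 2 (log2 fold change 0.57, SE 0.081, adjusted p = 7.54e-08) and in clone 1 (log2 fold change 0.55, SE 0.081, adjusted p = 1.36e-07).

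EPHA5 was not picked by the rule for naming genes, since its mean over the 12 libraries was under 1 CPM, and was chosen after its values were seen. It had 6 reads over the 3 libraries labelled rescue, 1 in clone 2 and 15 in clone 1, against 218 in wild-type cells, and was called lower than wild-type in each line. EPHA5 passed the filter for testing only through its wild-type libraries. The direction of these calls was thus fixed in advance, and they are descriptions. Its wild-type level was 2.94 ± 0.261 CPM (SD, n = 3).

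Of the other guidance ligands and co-receptors 11 of 18 were tested, with 6 higher and 1 lower in clone 2 and 5 higher and 5 lower in clone 1 against wild-type cells. The shares of all genes were 31.5% and 30.6% in clone 2 and 30.8% and 30.7% in clone 1. Set against clone 2, the libraries labelled rescue gave 1 higher and 4 lower, beside 19.3% and 19.9% of all genes, at a median of -0.13. DRAXIN, a secreted protein that binds DCC and netrin, averaged 3.33 CPM in the libraries labelled rescue, 3.20 in clone 2, 0.118 in clone 1 and 1.36 in wild-type cells. It was higher in clone 2 (log2 fold change 1.25, SE 0.20, adjusted p = 1.01e-06) and lower in clone 1 (log2 fold change -3.38, SE 0.41, adjusted p = 2.25e-09) than in wild-type cells. CNTN4, a contactin of neuronal adhesion, averaged 14.7 CPM in clone 2 and 36.8 CPM in wild-type cells and was lower in clone 2 (log2 fold change -1.31, SE 0.064, adjusted p = 8.51e-21). CNTN1, of the same family, was lower in the libraries labelled rescue than in clone 2 (log2 fold change -0.58, SE 0.062, adjusted p = 4.28e-10). FLRT2, a membrane ligand of UNC5 receptors, was higher in clone 2 (log2 fold change 0.32, SE 0.039, adjusted p = 1.95e-09) and lower in clone 1 (log2 fold change -0.27, SE 0.040, adjusted p = 2.7e-07) than in wild-type cells. NTNG1, a membrane-anchored netrin relative, averaged 140 CPM in the libraries labelled rescue, 142 in clone 2, 138 in clone 1 and 92.3 in wild-type cells, and was higher in clone 2 (log2 fold change 0.62, SE 0.037, adjusted p = 3.31e-18) and clone 1 (log2 fold change 0.57, SE 0.036, adjusted p = 3.86e-17). NRCAM, an adhesion molecule that joins neuropilin receptor complexes, was also higher in clone 2 (log2 fold change 0.75, SE 0.083, adjusted p = 2.16e-10) and clone 1 (log2 fold change 0.67, SE 0.083, adjusted p = 3.48e-09).

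Of the intracellular effectors 41 of 47 were tested, with 12 higher and 21 lower in clone 2 and 11 higher and 21 lower in clone 1 against wild-type cells, at medians of -0.11 and -0.12. Over all genes 31.5% were higher and 30.6% lower in clone 2 and 30.8% and 30.7% in clone 1, at medians of 0.013 and 0.0064. Set against clone 2, the libraries labelled rescue gave 9 higher and 8 lower, beside 19.3% and 19.9% of all genes, at a median of 0.024. Of the collapsin response mediator proteins, which carry semaphorin signals to microtubules, DPYSL5 and DPYSL3 had the steepest falls of the list in clone 1. DPYSL5 averaged 17.2 CPM in the libraries labelled rescue, 41.7 in clone 2, 0.310 in clone 1 and 24.4 in wild-type cells, at -6.31 (SE 0.15, adjusted p = 5.82e-32) in clone 1 and 0.77 (SE 0.058, adjusted p = 6.02e-15) in clone 2 against wild-type cells. DPYSL3 averaged 29.8, 29.2, 1.02 and 35.6 CPM in the same groups, at -5.13 (SE 0.11, adjusted p = 8.49e-33) in clone 1 and -0.28 (SE 0.059, adjusted p = 6.8e-05) in clone 2. CRMP1, of the same family, averaged 3.17, 3.23, 4.69 and 9.41 CPM and was lower in clone 2 (log2 fold change -1.54, SE 0.12, adjusted p = 1.91e-14) and clone 1 (log2 fold change -1.01, SE 0.11, adjusted p = 2.07e-10). DPYSL2, also of this family but added after its values were seen, averaged 274, 277, 201 and 273 CPM in the same groups. It was lower in clone 1 (log2 fold change -0.44, SE 0.034, adjusted p = 1.69e-14) and not called in clone 2 (log2 fold change 0.02, SE 0.034, adjusted p = 0.586).

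PAK1, a kinase downstream of Rac and Cdc42, averaged 25.7 CPM in the libraries labelled rescue, 23.6 in clone 2, 56.2 in clone 1 and 53.7 in wild-type cells and was lower in clone 2 than in wild-type cells (log2 fold change -1.18, SE 0.050, adjusted p = 6.95e-23). The genes of its chromosome, 11, had a median log2 fold change of -0.60 in that comparison. SRGAP1, a GTPase-activating protein of slit and robo signalling, was higher in clone 2 (log2 fold change 0.73, SE 0.095, adjusted p = 1.21e-08) and clone 1 (log2 fold change 0.98, SE 0.091, adjusted p = 2.96e-12), and in the libraries labelled rescue it was higher than in clone 2 (log2 fold change 0.69, SE 0.079, adjusted p = 2.72e-09). Of VAV2 and VAV3, exchange factors used by EPH receptors, VAV2 was lower in clone 1 (log2 fold change -1.74, SE 0.15, adjusted p = 1.28e-13) and VAV3 higher in clone 2 (log2 fold change 1.85, SE 0.24, adjusted p = 9.28e-09), each against wild-type cells. VAV2 averaged 2.37 CPM in the libraries labelled rescue, 4.33 in clone 2, 1.69 in clone 1 and 5.60 in wild-type cells. VAV3 averaged 2.42, 2.27, 1.07 and 0.612 CPM in the same groups. FES, a kinase bound to plexin A1, averaged 2.25 CPM in clone 2, 2.53 in clone 1 and 1.24 in wild-type cells and was higher in both (log2 fold change 0.84, SE 0.20, adjusted p = 0.000456 in clone 2, log2 fold change 1.01, SE 0.20, adjusted p = 2.75e-05 in clone 1). RASA1, a GTPase-activating protein of Ras bound by EPH receptors, was higher in the libraries labelled rescue than in clone 2 (log2 fold change 0.50, SE 0.051, adjusted p = 1.2e-10). MICAL1, an oxidoreductase that takes actin filaments apart downstream of plexins, was higher in clone 1 (log2 fold change 0.98, SE 0.081, adjusted p = 9.67e-14).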

How the data were processed

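Poly(A) RNA of TC71 cells was measured in 12 libraries, 3 in each of 4 groups, assigned by their titles. The authors deposited raw read counts per gene with Ensembl identifiers. The submitters' processing notes name FastQC, STAR and the build hg38. The counter, its strand setting, its annotation and any filter are not given in the sources used, so overlapping genes are uncertain. Identifiers were matched to GENCODE 29, and exon lengths were taken from it.

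Counts were fitted for all 12 libraries with edgeR 4.0.16 (limma 3.58.1, R 4.3.3), with TMM scaling, filterByExpr at a minimum count of 10, the quasi-likelihood test with 8 residual degrees of freedom and Benjamini-Hochberg adjustment over the 17084 tested genes. CPM are TMM-scaled. Totals ran from 19420408 to 29748084 counts. Libraries of a group differed beyond counting noise (chi-square per degree of freedom 1.59 to 3.43), with a biological coefficient of variation of 2.95%. DESeq2 1.42.0 and limma-voom were alternatives. The fit was tested on simulated data.

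Members and lists were chosen with earlier results of these data known. Guidance genes given library by library were tested, averaged at least 1 CPM over the 12 libraries and were called with a fold change of 2 or more in clone 1 or clone 2 against wild-type cells or in the rescue line against clone 2. Of these, UNC5A averaged 1 CPM or more only in clone 2 and SEMA3G only in clone 1, so each was picked through the group where it is high. ROBO2, EFNB1 and EFNB3 were added after their values were seen. From each companion list, the 2 largest rises and 2 largest falls in each of these 3 comparisons were taken among called genes that averaged at least 1 CPM over the 12 libraries.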

Additional observations from a re-analysis of the deposited data

Results flagged for a closer look

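In 7 guidance genes the knockout clones differed from wild-type cells in opposite directions, both passing the test. How many of all 17084 tested genes did so was not counted. Calls in either direction took 62.1% of all genes in clone 2 and 61.5% in clone 1. The 7 are therefore not read as a trait of guidance genes. On the log2 scale NEO1 was higher in clone 2 than in clone 1 by 1.97, SEMA6A by 1.66 and SEMA3D by 0.63. SEMA3G was lower in clone 2, at -3.09. ROBO2 stood at -0.93, SEMA4F at -0.81 and PLXNA1 at -0.69. The choice of genes called in opposite directions fixes that the clones differ, so these differences, from the same edgeR fit, are descriptions and no separate test. Both comparisons with wild-type cells share the 3 wild-type libraries. What separates the clones was not tested.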

How the results depend on the processing

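The alternatives were DESeq2's size factors, upper quartile scaling, a filter of 1 CPM in 3 libraries, no filter at all, DESeq2's and limma-voom's own tests, a fit of only the groups compared, the replicate block, and leaving out each library. No count of guidance genes called moved by over 1.5 times. Counting each pair of a single result and an alternative, over genes called in at least 1 setting, 3823 pairs kept direction and side of the threshold, 112 lost the call, 50 gained it and 5 changed sign. The 3823 include 13 chromosome medians taken over all tested genes. These 5 were differences near 0: without wild-type replicate 3, UNC5B in clone 1 against wild-type cells stood at -0.0068, PLXND1 in clone 2 against wild-type cells at -0.00081, and SEMA4C in the libraries labelled rescue against wild-type cells at -0.0013. SEMA4C in that comparison stood at -0.00093 without rescue replicate 1 and at -0.021 without wild-type replicate 1. Leaving out each library, UNC5B in clone 1 ranged from -0.0068 to 0.12, PLXND1 in clone 2 from -0.00081 to 0.086 and SEMA4C in the libraries labelled rescue from -0.021 to 0.12, each against wild-type cells. The cause was not tested. Upper quartile scaling moved the median of all genes by 0.069 on the log2 scale in clone 2 against wild-type cells, where it called 23 guidance genes higher and 11 lower. The shares of all genes called under this scaling are not given here, so these counts have no share to be read beside.

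Correlations of deviations between same-numbered libraries ran from -0.046 to 0.116 over the 5 comparisons, and in none did every pair exceed 0.1, so the numbers were not taken to pair the libraries. Between clones 2 and 1 each library correlated best with its own number (0.042 to 0.09, against -0.078 to -0.006 for other numbers), a hint from the data and not from the design. With the replicate block, clone 1 against wild-type cells had 26 genes higher and 10 lower, and the other comparisons kept their counts: 19 and 15 in clone 2 against wild-type cells, 12 and 15 in the libraries labelled rescue against clone 2, 18 and 16 in the libraries labelled rescue against wild-type cells, and 13 and 25 in clone 2 against clone 1. The shares of all genes called with the replicate block are not given here, so these counts have no share to be read beside. Depth limits NTN1, NTN5 and UNC5CL, which had the fewest reads of the tested guidance genes.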

Other observations

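Summed over each family and given per kb of exon (SD, n = 3 libraries a group), class 3 semaphorin RNA stood at 16.1 ± 0.299 CPM per kb in the libraries labelled rescue, 16.8 ± 0.236 in clone 2, 15.6 ± 0.434 in clone 1 and 10.6 ± 0.302 in wild-type cells. The wild-type libraries were the lowest of this family. Membrane semaphorin RNA stood at 19.6 ± 0.589, 20.4 ± 0.350, 27.4 ± 0.326 and 19.9 ± 0.817 CPM per kb in the same groups, so that clone 1 lay above the others. Robo receptor RNA stood at 20.7 ± 1.06 CPM per kb in the libraries labelled rescue, 16.7 ± 0.344 in clone 2, 26.8 ± 0.239 in clone 1 and 22.2 ± 0.420 in wild-type cells. These sums are weighted to the most abundant gene of each family and were not tested.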
